A study of Arabidopsis thaliana with 9 samples.

Results

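The chloroplast-encoded ribosomal protein genes described here are rps2, rps4, rps14 and rps18, which encode proteins of the small subunit of the plastid ribosome, and rpl14, rpl20 and rpl33, which encode proteins of its large subunit. They were chosen by name among the genes of the plastid genome that had a probe set of their own on the array. These 7 genes are among 16550 genes with a named probe set, of which 63 lie on the plastid genome. Of 21 plastid ribosomal protein gene names in the gene table, 13 had a single-gene probe set, the 7 genes of the set and 6 others. The remaining 8 were not analysed here as single genes.

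Plastids carry their own ribosomes, of a bacterial type, which are built from proteins encoded partly in the plastid genome and partly in the nucleus. Plastid genes are transcribed in long units by a plastid-encoded RNA polymerase, whose core subunits come from the rpo genes, and by a nuclear-encoded polymerase of phage type, and many ribosomal protein genes share a transcript with genes of photosynthesis. Roots hold mostly non-green plastids, which still need translation to make the few plastid-encoded proteins that all plant cells require.

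Roots from 3 tubes were compared. All roots came from seedlings of Arabidopsis thaliana, cultivar Wassilewskija, 10 days old and grown under light for 24 h a day, with the genotype pCaMV35S:14-3-3κ:GFP, in which a viral promoter active in most tissues drives a 14-3-3 kappa protein fused to GFP. All arrays, those of the ground tube included, thus carry the transgene, and no untransformed seedlings were compared. The seedlings of the last-actuated tube flew on an F-104 jet, through a climb at 4 g for about 30 s and then about 10 s of microgravity and a short hyper-g pull-up, and met the fixative RNAlater after level flight of about 1.5 min. Those of the first-actuated tube made the same flight and were fixed directly after the microgravity phase. Those of the ground tube were fixed on the ground while the flight was under way. Each tube gave 3 replicates of whole roots, 9 arrays in all, so the effect of a tube and that of its condition cannot be told apart. Each p-value measures only the spread among roots within tubes, which limma pools over the 3 tubes. Every level below is a deposited log2 expression value, normalized between arrays, and every difference is one of log2 values. Levels are compared between tubes and never between genes, since probe sets differ in brightness.

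Facts of the whole series bear on all results below. The 2 measured root markers of 12 listed, the root hair expansin genes EXPA7 and EXPA18, had levels of 3.86 to 5.50 on the 9 arrays. They differed in opposite directions. EXPA18 was higher in first-actuated roots than in last-actuated (limma, adjusted p = 0.0454) and ground roots (limma, adjusted p = 0.0203). EXPA7 had a first-actuated minus ground difference of -0.63 (limma, adjusted p = 0.0685) and a last-actuated minus first-actuated difference of 0.44 (limma, adjusted p = 0.283), both without overlap of the arrays. Of 12 shoot markers, RCA, which encodes Rubisco activase, and LHCB4.1, of the light-harvesting antenna, were measured. Their summed level, as the log2 of the sum of linear values, was 6.83 to 6.88 in the last-actuated tube, 6.91 to 7.08 in the first-actuated tube and 7.19, 6.89 and 6.94 in ground replicates 1, 2 and 3. The other 10 of each list were not analysed here. In such bulk samples fewer plastids or cells of a type and less RNA per cell cannot be told apart.

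The ground arrays did not agree among themselves on these 7 transcripts. In all 7, ground replicate 1 was the highest of the 9 arrays and ground replicate 2 the lowest of the 3 ground arrays. Over all genes, ground replicate 2 was the lowest ground array for 36.4%. It still lay above all 6 flight arrays for 6 of the 7, all but rps18, against 15.4% of all genes. The SD among ground arrays ran from 0.33 for rps4 to 0.99 for rps2, against 0.047 to 0.53 in the last-actuated and 0.011 to 0.28 in the first-actuated tube. The counts against the ground tube are therefore also given without ground replicate 2. That array was picked from these same values, so leaving it out had to widen every difference of the 7 from the ground. Counts of other plastid genes without it share this limit. The median distance of 39 plastid photosynthesis genes from their own 9-array means was 1.22, 0.06 and 0.73 in ground replicates 1, 2 and 3.

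Among the small-subunit genes, rps4 encodes S4, a protein that in bacteria binds ribosomal RNA early and starts assembly of the small subunit. Its level was 8.73, 8.92 and 8.68 in last-actuated roots, 9.01, 9.37 and 9.17 in first-actuated roots and 10.03, 9.37 and 9.73 in ground roots. The last-actuated arrays lay below all others, while the highest first-actuated and the lowest ground array were equal to 2 decimals, the ground array being higher before rounding. The last-actuated mean of 8.78 ± 0.13 was 0.93 lower than the ground mean of 9.71 ± 0.33 (SD, n = 3 each; 95% interval of the log2 difference -1.31 to -0.56, limma, adjusted p = 0.0338). Against the first-actuated mean of 9.18 it differed by -0.41 (-0.78 to -0.03, limma, adjusted p = 0.318). The first-actuated minus ground difference was -0.53 (limma, adjusted p = 0.126).

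rps14 encodes S14, a protein of the head of the small subunit, and lies beside the photosystem I genes psaA and psaB. Its level was 7.41, 7.40 and 7.49 in last-actuated roots, 7.71, 7.81 and 7.81 in first-actuated roots and 8.81, 7.98 and 8.47 in ground roots. The 3 tubes did not overlap, in the order last-actuated, first-actuated, ground from low to high. Between last-actuated and ground roots the log2 difference was -0.99 (95% interval -1.38 to -0.59, limma, adjusted p = 0.0338), a 1.98-fold lower level in last-actuated roots. The step between the flight tubes was -0.34 (-0.73 to 0.05, limma, adjusted p = 0.460), and that between first-actuated and ground roots was -0.65 (limma, adjusted p = 0.0737).

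rps18 encodes S18, which sits on the platform of the small subunit and which tobacco cells cannot lose. Its level was 7.54, 7.54 and 7.41 in last-actuated roots, 6.96, 7.14 and 7.11 in first-actuated roots and 8.92, 7.32 and 8.86 in ground roots. It was the 1 member whose last-actuated arrays all lay above the first-actuated arrays, and ground replicate 2 fell between the flight tubes. The last-actuated minus first-actuated difference of 0.43 had an interval of -0.35 to 1.2 and was not called (limma, adjusted p = 0.676). The SD was 0.075 in the last-actuated, 0.095 in the first-actuated and 0.91 in the ground tube, and all of these enter that interval. Against the ground, rps18 differed by -0.87 in last-actuated roots (limma, adjusted p = 0.346) and by -1.3 in first-actuated roots (limma, adjusted p = 0.0686).

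rps2 encodes S2, a protein of the back of the small subunit. Its level was 4.35, 4.95 and 5.41 in last-actuated roots, 4.93, 5.42 and 5.39 in first-actuated roots and 7.62, 5.66 and 6.93 in ground roots. The flight tubes overlapped, and all ground arrays lay above them, though ground replicate 2 by little. Of the 7 transcripts rps2 had the largest difference from the ground, -1.83 in last-actuated and -1.49 in first-actuated roots, and also the widest intervals (-2.80 to -0.86 and -2.46 to -0.52, limma, adjusted p = 0.102 and 0.0934).

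Among the large-subunit genes, rpl14 encodes L14, a protein of the face that meets the small subunit. Its level was 9.34, 9.22 and 9.17 in last-actuated roots, 9.07, 9.25 and 9.10 in first-actuated roots and 11.27, 9.58 and 10.99 in ground roots. The flight tubes overlapped, ground replicate 2 lay just above them, and the other ground arrays far above. The first-actuated mean of 9.14 ± 0.097 was 1.47 below the ground mean of 10.61 ± 0.90 (SD, n = 3 each; 95% interval of the log2 difference -2.24 to -0.70, limma, adjusted p = 0.0403), a 2.77-fold lower level. The last-actuated minus ground difference was nearly as large, -1.37, and was not called (-2.14 to -0.60, limma, adjusted p = 0.123). Between the flight tubes it was 0.10 (-0.67 to 0.87).

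rpl20 encodes L20, which in bacteria binds ribosomal RNA at the start of large-subunit assembly. Its level was 8.87, 8.55 and 8.60 in last-actuated roots, 8.94, 8.96 and 8.95 in first-actuated roots and 10.23, 9.18 and 10.03 in ground roots. The tubes did not overlap, and last-actuated roots were lowest. Its differences were -1.14 for last-actuated against ground roots (limma, adjusted p = 0.0570), -0.87 for first-actuated against ground roots (limma, adjusted p = 0.0673) and -0.27 between the flight tubes (-0.79 to 0.24).

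rpl33 encodes L33, a small protein that tobacco can do without except in the cold. Its level was 8.12, 7.91 and 8.05 in last-actuated roots, 8.08, 8.21 and 8.21 in first-actuated roots and 9.22, 8.35 and 8.94 in ground roots. The flight tubes overlapped and lay below all ground arrays. The differences were -0.81 for last-actuated against ground roots (limma, adjusted p = 0.1), -0.67 for first-actuated against ground roots (limma, adjusted p = 0.0844) and -0.14 between the flight tubes (-0.56 to 0.29).

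**Figure D1:**
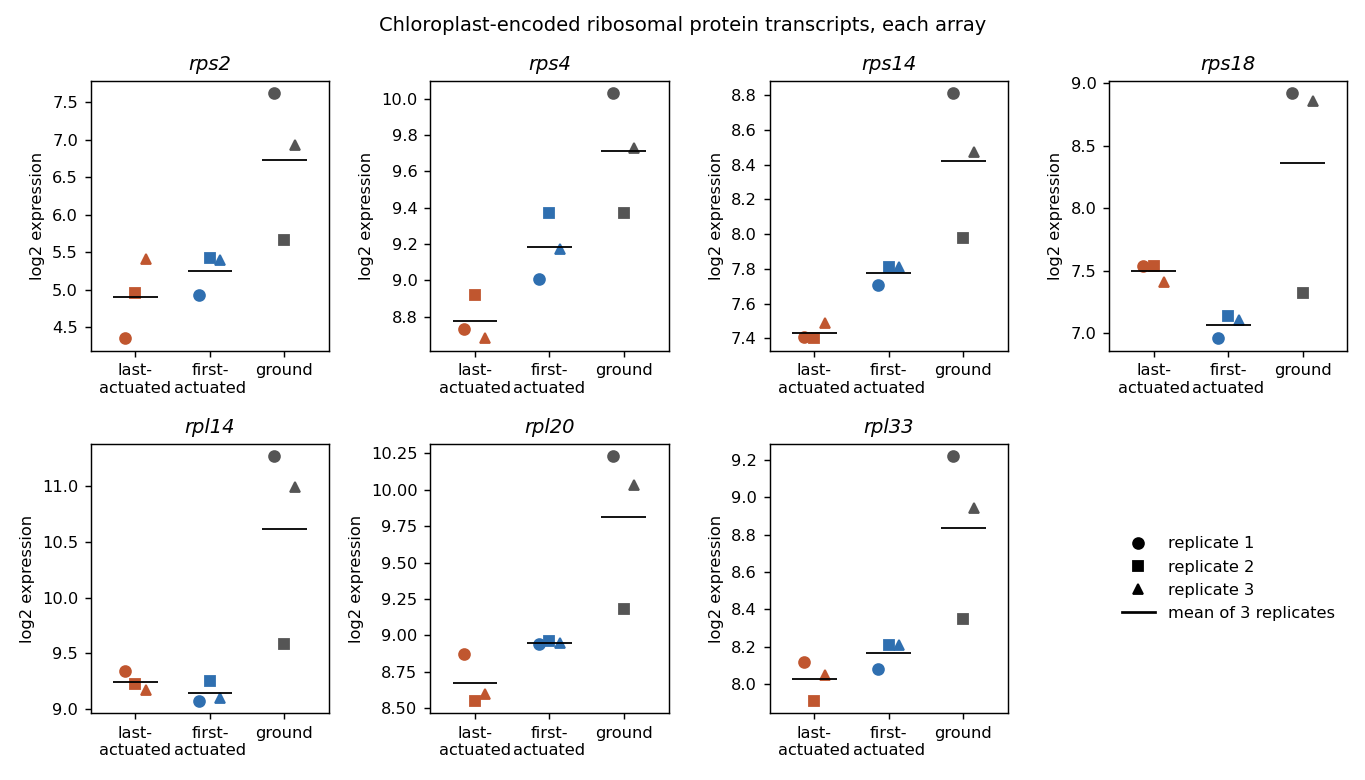
Deposited log2 expression of each of the 7 transcripts on every array, by tube, with a marker for each replicate number and a line at the mean of the 3 replicates. Ground replicates 1 and 3 stand above all flight arrays in every panel, while ground replicate 2 lies near them, between the flight tubes for rps18.

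For the comparison of last-actuated with ground roots, which asks how roots differed after the return to level flight, the 7 transcripts had a median log2 difference of -0.99, against 0.026 over all genes tested. All 7 differences were negative, as were 44.3% over all genes, and 2, rps4 and rps14, passed the threshold of an adjusted p under 0.05. Over all genes 0.332% were called lower. The arrays of the tubes did not overlap for 6 of the 7, all but rps18, and 5.40% of all genes were lower with no overlap. Without ground replicate 2 the call was reached by 7 of 7, with a median of -1.39, and over all genes by 1.62%. Without any other single array it was reached by 0 of 7.

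For first-actuated against ground roots, which asks how roots stood right after microgravity, the median was -0.87, against 0.0098 over all genes. All 7 were negative, against 47.6% of all genes, and 1, rpl14, was called, beside 1.67% of all genes called lower. The arrays did not overlap for 7 of 7, and 9.0% of all genes were lower with no overlap. Without ground replicate 2, 7 of 7 were called, with a median of -1.18, against 3.24% of all genes, and without any other single array 0 of 7 were. This comparison and the previous one share the ground arrays. By the moderated F test over the 3 tubes, rps14 (limma, adjusted p = 0.0260), rps4 (0.0279) and rpl20 (0.0407) differed among tubes, 3 of 7 against 4.45% of all genes, which became 7 of 7 against 7.35% without ground replicate 2 and 0 or 1 without any other single array.

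**Figure D2:**
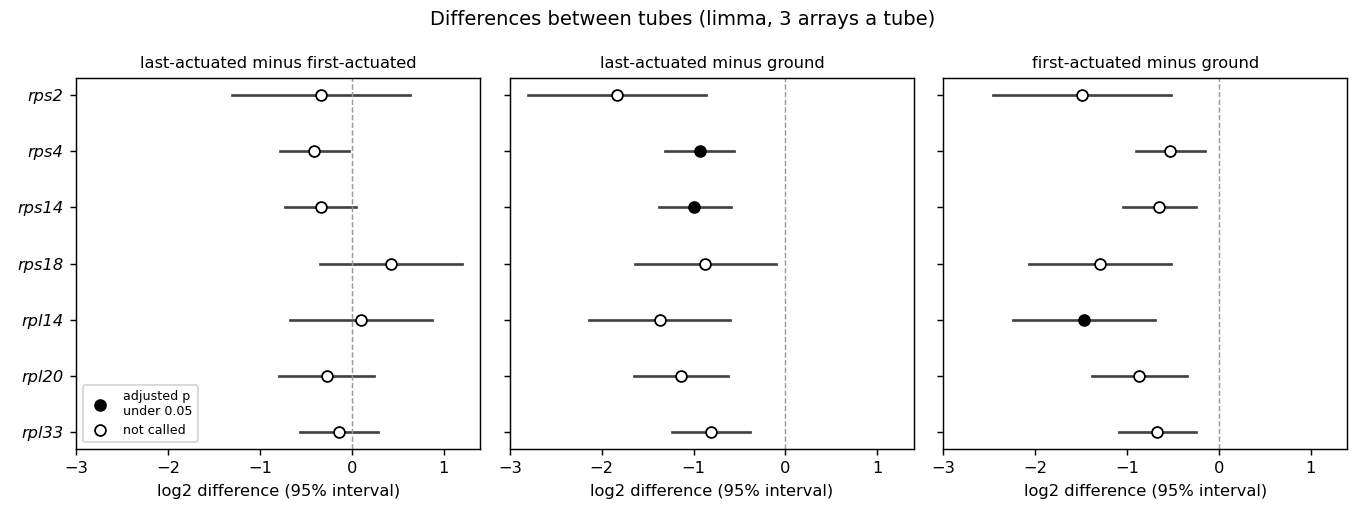
Log2 differences between tubes with 95% intervals from limma for each of the 7 transcripts, with filled points for an adjusted p under 0.05. Differences from the ground tube are all negative with 3 filled points, and those between the flight tubes lie on both sides of 0.

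**Figure D3:**
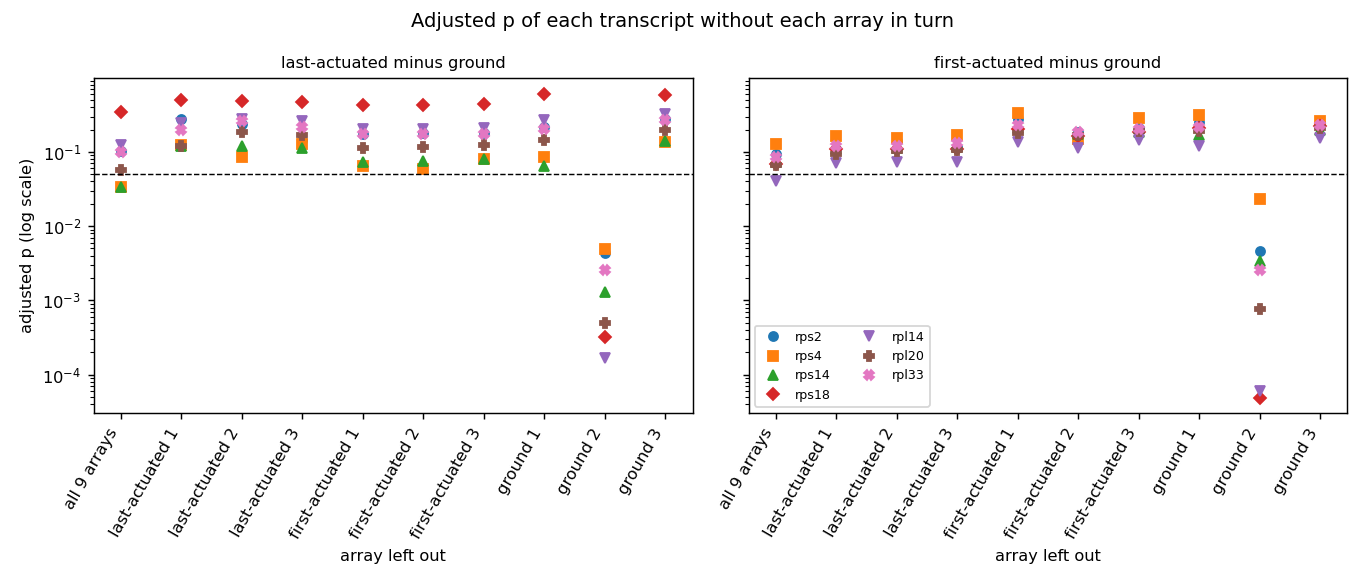
Adjusted p of each transcript against the ground tube, on a log scale, with all 9 arrays and without each array in turn, and a dashed line at 0.05. All 7 points lie under the line without ground replicate 2, and none does without any other single array.

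Between last-actuated and first-actuated roots limma called 0 of 7, with 1 transcript, rps4, at an unadjusted p under 0.05, while 2.24% of all genes were called in either direction. The 7 differences ran from -0.41 to 0.43, with a median of -0.27 against 0.011 over all genes, and 5 of 7 were negative against 47.3% of all genes. The arrays of the flight tubes did not overlap for rps4, rps14 and rpl20, which were lower in last-actuated roots (9.09% of all genes), nor for rps18, which was higher (9.01%). The intervals leave room for differences up to 0.87 for rpl14 and 1.2 for rps18 upward and down to -1.31 for rps2. These values do not depend on the ground level, although ground arrays enter the estimate of the spread. Without ground replicate 2 the adjusted p of rps18 was 0.0592, and the count remained 0. With the 2 flight groups only, the limma adjusted p was 0.0672 for rps18, 0.0882 for rps14 and 0.172 to 0.665 for the others.

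Between the flight tubes, differences of genes next to each other on the plastid genome had both signs, and 1 of the measured neighbours was called. psaB, a photosystem I core gene beside rps14, fell by 0.90 in last-actuated against first-actuated roots (95% interval -1.25 to -0.54, limma, adjusted p = 0.0206). Its neighbour psaA, another photosystem I core gene, had a difference of -0.71 (limma, adjusted p = 0.119) and rps14, the last of the 3 in gene order, one of -0.34. Beside rps2, its neighbours rpoC2, atpI, atpH, atpF and atpA, for an RNA polymerase subunit and subunits of the ATP synthase, had differences of -0.55 to -0.08, against -0.34 for rps2, and all intervals included 0. rpl16, which encodes another large-subunit protein and lies beside rpl14, had a difference of 0.01 against 0.10 for rpl14. Further along from rpl14, rpoA, for a polymerase subunit, had a difference of -0.34 (limma, adjusted p = 0.682) and petD, for a cytochrome b6f subunit, one of -0.62 (limma, adjusted p = 0.0747). rpl33 and rps18 lie next to each other, and their differences of -0.14 and 0.43 had opposite signs. psaJ, of photosystem I, on the other side of rpl33, was at 0.13, and clpP, near rpl20, at -0.01. Near rps4, ycf3, which encodes an assembly factor of photosystem I, had a difference of -0.03 and ndhJ, of the NDH complex, one of 0.19. None of these differences between neighbours was tested.

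Against the ground all measured neighbours had negative differences in both flight tubes. Of 14 measured of 16 listed, 4 were called lower in last-actuated roots, namely psaB, psaA, which fell by 1.23 (limma, adjusted p = 0.0221), atpI, by 1.58 (0.0393), and atpA, by 1.3 (0.0401). In first-actuated roots 2 were, atpI, which fell by 1.25 (limma, adjusted p = 0.0392), and ndhJ, by 1.15 (0.0424). psaB had a difference of -1.15 in last-actuated roots (limma, adjusted p = 0.0106) and of -0.25 in first-actuated roots (limma, adjusted p = 0.496). Without ground replicate 2 the neighbours called lower were 12 and 11. Of all 63 plastid genes, these neighbours and the 7 included, 13 and 7 were called lower in last-actuated and first-actuated roots. Without ground replicate 2 those numbers were 54 and 52. Over all genes 0.332% and 1.67% were called lower, and 1.62% and 3.24% without ground replicate 2.

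**Figure D4:**
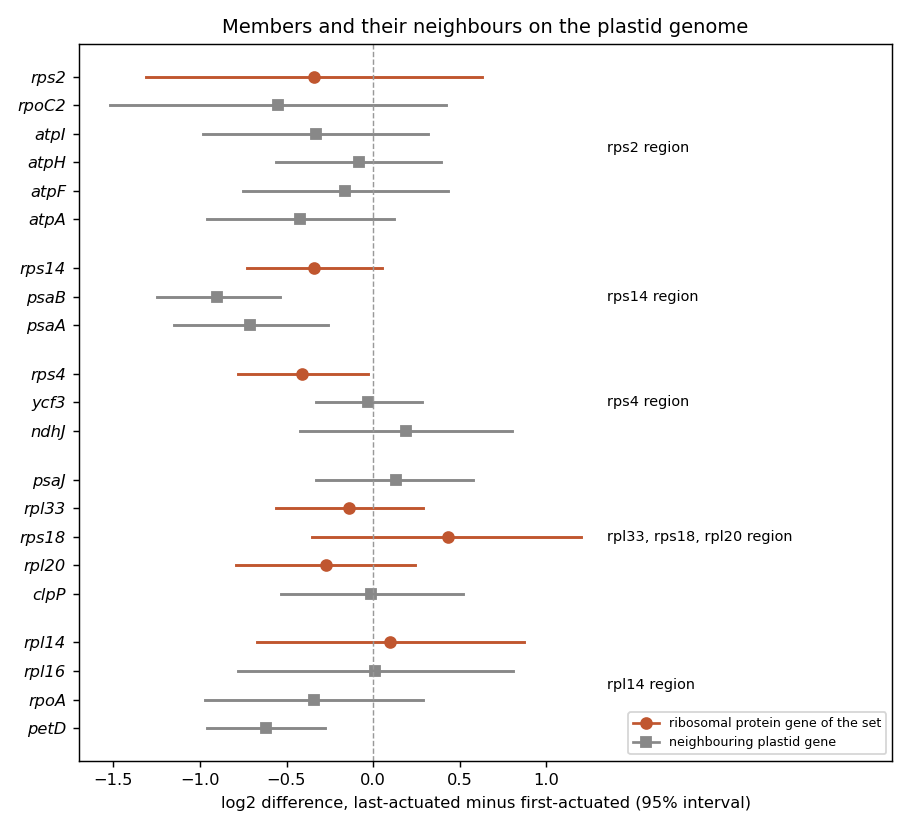
Log2 differences of last-actuated minus first-actuated roots with 95% intervals for the 7 transcripts, in colour, and 14 measured neighbours on the plastid genome, in grey. psaB and psaA lie further below 0 than rps14, and rps18 lies above its neighbours rpl33 and rpl20.

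To set the 7 transcripts beside the rest of the plastid genome on the same array, the median level of 39 plastid photosynthesis genes was subtracted from each. The differences of those 39 genes had medians of -1.11 in last-actuated and -0.87 in first-actuated against ground roots, with 11 and 6 called lower. The subtracted median level is not the median of those differences, and it moved by another amount. For rpl33, the last-actuated minus ground difference was -0.81 in level and 0.58 in relative level. The median difference of the 39 genes between the flight tubes was -0.28, with 31 of 39 negative. Of these genes 1 was called lower (psaB) and 1 called higher (psbM, for a photosystem II subunit, 0.67, limma, adjusted p = 0.0268). The SD over the 9 arrays was 0.36 for the relative level of rps18, against 0.73 for its level, 0.24 against 0.85 for rpl14, 0.33 against 1.0 for rps2 and 0.23 against 0.59 for rpl20. The SDs lay closer together for rps14, at 0.30 against 0.48, for rpl33, at 0.33 against 0.44, and for rps4, at 0.39 against 0.45. Relative to that median level, rps18 stood at 0.12, -0.01 and -0.37 in last-actuated roots, -0.89, -0.75 and -0.68 in first-actuated roots and -0.67, -0.78 and -0.35 in ground roots. The relative level of rps18 was thus higher in all last-actuated than in all first-actuated arrays, by 0.69 (exact two-sided permutation test, p = 0.1, the smallest that 3 against 3 arrays allow). That of rpl14 was higher by 0.36 without overlap (exact permutation p = 0.1), at 1.92, 1.67 and 1.39 in last-actuated against 1.22, 1.36 and 1.31 in first-actuated roots, while its own level differed by 0.10 with overlap. The other 5 overlapped between the flight tubes, with differences of -0.15 to 0.13.

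Relative to the same median level, rpl33 was higher in last-actuated than in ground roots by 0.58 without overlap, and rpl14 was lower in first-actuated than in ground roots by 0.35 without overlap (exact permutation p = 0.1 each). The other relative differences from the ground overlapped between tubes and ran from -0.45 to 0.60. Of the 21 relative differences 4 were without overlap, and 13 without ground replicate 2, 7 without last-actuated replicate 3 and 8 without first-actuated replicate 1. Arrays without overlap give an exact permutation p of 0.2 at 2 against 3 arrays, so these later counts are not comparable with the 4. The share without overlap among other genes was not computed for relative levels. Set against all other plastid genes in place of the photosynthesis genes, the differences of rps18 and rpl14 between the flight tubes were 0.73 and 0.38, while that of rpl33 between last-actuated and ground roots was 0.23 with overlap. The first-actuated minus ground difference was then -0.72 for rpl14 and -0.68 for rps2, both without overlap, in place of -0.35 and, with overlap, -0.37.

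**Figure D5:**
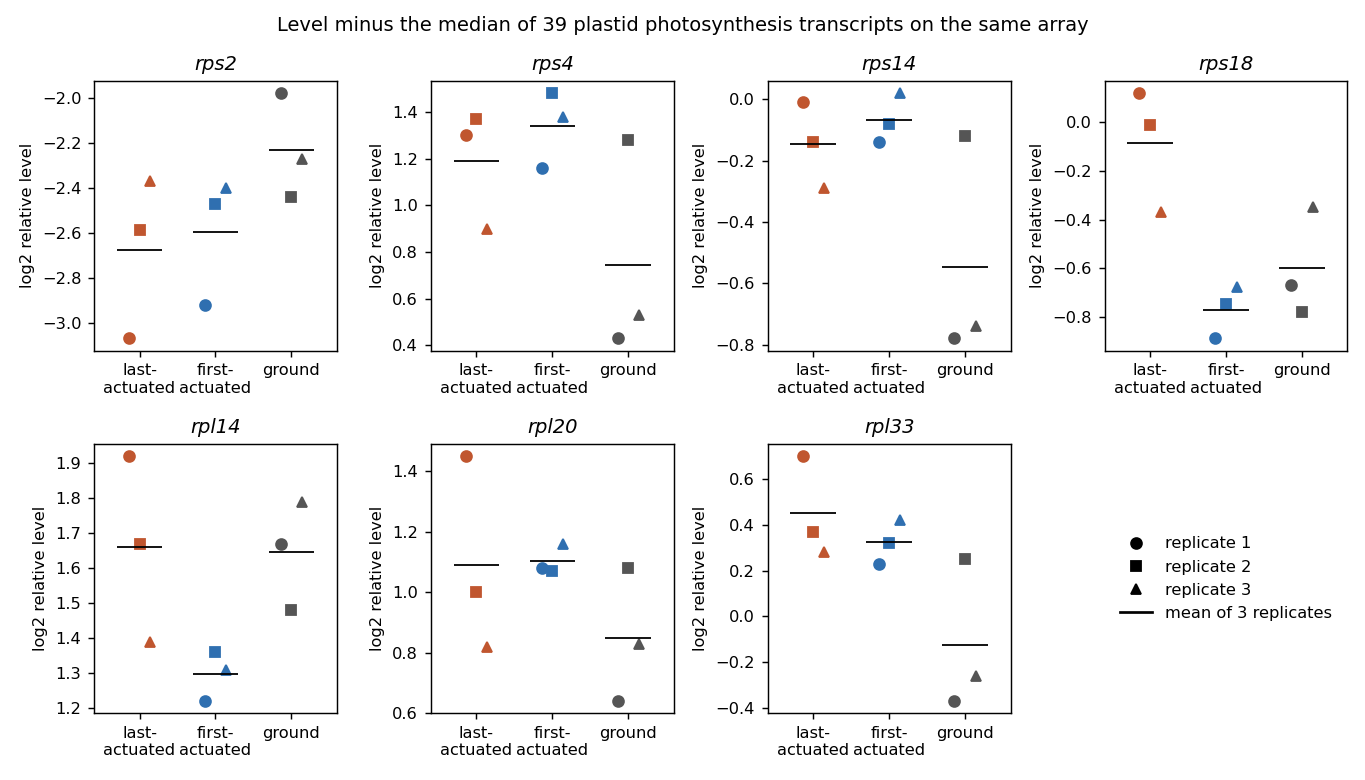
Level of each of the 7 transcripts minus the median of 39 plastid photosynthesis transcripts on the same array (log2), by tube, with a marker for each replicate number and a line at the mean. The last-actuated arrays of rps18 lie above its first-actuated arrays, by 0.69 on average.

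The 6 other plastid ribosomal protein genes with a single-gene probe set, rps15, rps16, rps19, rpl16, rpl32 and rpl36, were not in the set. Limma called 0 of 6 in each comparison, with 5, 6 and 1 at an unadjusted p under 0.05 for last-actuated against ground, first-actuated against ground and last-actuated against first-actuated roots. Without ground replicate 2, 5 and 6 were called lower than the ground. Their medians were -1.38 and -1.19 against the ground. rpl32, a large-subunit gene in the small single-copy region, was at 8.96, 9.01 and 8.46 in last-actuated roots, 7.92, 8.07 and 8.22 in first-actuated roots and 8.99, 8.37 and 9.53 in ground roots, so its last-actuated arrays, like those of rps18, all lay above its first-actuated arrays. Its last-actuated minus first-actuated difference was 0.74 (limma, adjusted p = 0.222).

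Genes that serve the same machinery were measured in part. The 6 plastid genes for the RNA polymerase (rpoA, rpoB, rpoC1, rpoC2), the maturase matK and the protease subunit clpP had medians of -1.43 and -1.17 in last-actuated and first-actuated against ground roots. Limma called 0 of 6 in each, with 6 and 6 at an unadjusted p under 0.05, and 6 and 6 were called without ground replicate 2. Those with the smallest p were rpoC2 in last-actuated roots (-2.06, limma, adjusted p = 0.0671) and clpP in first-actuated roots (-0.92, limma, adjusted p = 0.0581). Between the flight tubes limma called 0 of 6, with 0 at an unadjusted p under 0.05, and rpoC2 had the smallest p (-0.55, limma, adjusted p = 0.666).

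Of 39 nuclear genes for plastid ribosomal proteins, 10 were measured. All 10 had a negative difference from the ground in both flight tubes, with medians of -0.87 in last-actuated and -1.13 in first-actuated roots. AT5G24490, for a plastid-specific ribosomal protein, was at 4.79, 4.68 and 4.79 in last-actuated roots, 4.40, 4.35 and 4.13 in first-actuated roots and 6.02, 5.45 and 5.63 in ground roots. It fell by 0.95 in last-actuated (limma, adjusted p = 0.0184) and by 1.41 in first-actuated roots (limma, adjusted p = 5.35e-04), and its flight arrays all lay below the ground arrays. AT3G13120, for the plastid S10 protein, fell by 1.09 in first-actuated roots (limma, adjusted p = 0.0491). Without ground replicate 2, 7 and 8 of the 10 were called lower. Between the flight tubes limma called 0 of 10, with 1 at an unadjusted p under 0.05, AT5G24490 (0.46, limma, adjusted p = 0.176), and the median was 0.22, above that of the 7 plastid-encoded transcripts, -0.27. Whether these medians differ was not tested.

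The nuclear lists for plastid transcription and translation held 3 measured genes. AT5G15700, for a phage-type RNA polymerase, had differences of 0.09 and 0.11 from the ground in last-actuated and first-actuated roots (limma, adjusted p = 0.794 and 0.683). Of the plastid translation factors, AT2G24060, for an initiation factor, had differences of -0.73 and -0.66 (limma, adjusted p = 0.317 and 0.253), and FUG1, for another initiation factor, of -0.02 and -0.24. FUG1 had a difference of 0.22 between the flight tubes (limma, adjusted p = 0.423) and AT5G15700 one of -0.02 (limma, adjusted p = 0.96). The levels of FUG1 and AT5G15700 ran from 1.83 to 2.42, near the median gene mean of 2.15, and no detection calls were available. Of 7 mitochondrion-encoded ribosomal protein genes listed, 0 were matched by locus. A probe set named rpl2, a name that plastid and mitochondrial genes share, was assigned to neither genome and is in no list.

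Other gene groups were also highest in ground replicate 1. Taking for every gene its distance from its own 9-array mean and then the median over a list, the 7 transcripts stood at -0.33, -0.45 and -0.39 in last-actuated, -0.26, -0.19 and -0.20 in first-actuated and 1.09, 0.03 and 0.89 in ground replicates 1, 2 and 3. The 10 nuclear genes for plastid ribosomal proteins were at 1.29, 0.03 and 0.65 in the ground replicates, and 10 nuclear photosynthesis genes at 0.85, 0.02 and 0.57. The shoot markers RCA and LHCB4.1 had a median deviation of 0.16, -0.04 and -0.01 there, and 12 mitochondrion-encoded genes 0.36, 0.15 and 0.07. LHCB4.1 is also among the 10 nuclear photosynthesis genes, so those lists are not separate. Those 12 genes had a median of -0.45 in last-actuated against ground roots, all 12 negative, with nad2 called (limma, adjusted p = 0.0475). In first-actuated roots the median was -0.15, with 11 negative and nad9 called (limma, adjusted p = 0.0131). Between the flight tubes it was -0.34, against -0.27 for the 7, with 11 of 12 negative and 0 called. Among the shoot markers limma called 0 of 2 in each comparison, with 0 at an unadjusted p under 0.05. The 10 nuclear photosynthesis genes had medians of -0.7 in last-actuated and -0.89 in first-actuated against ground roots, with 7 and 8 negative. LHB1B2 (limma, adjusted p = 0.014 and 0.0175) and PSAE-1 (0.0373 and 0.0285) were called lower in both flight tubes. Their flight means, 2.47 to 2.84, lay near the median gene mean of 2.15. PSBY was called lower in first-actuated roots alone (limma, adjusted p = 0.0232). The part of these transcripts in the differences of the 7 was not tested.

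By Pearson correlation over the 9 arrays, as a description of arrays that share 3 tubes and among which ground replicates 1 and 3 stand apart, the 3 genes most like each of the 7 were plastid genes in most cases. The gene most like rpl14 was its neighbour rpl16 (r = 0.995), followed by AT5G45670 (0.994) and AT1G64430 (0.990). rpl33 was most like rps19 (0.998), psaC (0.994) and rpoC2 (0.992), and rpl20 most like psbI (0.991), petG (0.991) and rps19 (0.990). rps14 was most like psbZ (0.997), psbK (0.994) and atpA (0.993), and rps4 most like psbJ (0.973), atpA (0.972) and psbZ (0.971). The gene most like rps18 was AT3G25480 (0.988), before petN (0.983) and AT1G32470 (0.978), and the one most like rps2 was AT2G07732 (0.985), before rbcL (0.976) and AT3G14860 (0.975). The genes given here by a locus number lie outside the plastid genome. Among the 20 genes most like each, plastid genes numbered 17 for rps14 and rpl33, 16 for rpl20, 14 for rps4, 9 for rps2, 8 for rpl14 and 5 for rps18.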

How the data were processed

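The authors hybridized whole-root RNA to 1-colour AraGene 1.0 ST arrays and deposited log2 expression values. Per the submitters' processing notes these were made with RMA and oligo in R 4.0.0, with build TAIR10. The sources used here give no further settings. The values of 38408 probe sets ran from 0.0515 to 13.81, without detection calls, and precision is limited by the number of arrays. A probe annotation table named 1 gene for 16722 probe sets, which gave 16550 genes. For genes with several probe sets the one with the highest mean was used. Each of the 7 had 1 probe set. The RefSeq gene table, of assembly TAIR10.1, served for names and gene order alone.

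Differences between tubes were tested with limma 3.58.1 in R 4.3.3, with 3 groups, empirical Bayes moderation (3.89 prior and 6 residual degrees of freedom) and p-values adjusted over the 16550 genes by Benjamini-Hochberg. The steps were tested on simulated data with independent noise and, for each gene, the same SD in all tubes. That setting leaves out the wider spread among ground arrays seen for the 7. Relative levels were compared with an exact permutation test in scipy 1.17.1. The members and lists were chosen with earlier results of these data known. The lists of photosynthesis, mitochondrial and other ribosomal protein genes were written after the probe names were seen. The text names all 7, their neighbours and, from the lists other than that of plastid photosynthesis genes, up to 3 called genes or the 1 with the smallest p. Of the called plastid photosynthesis genes, only neighbours of the 7 and psbM are named as called. It also names the 3 genes most like each member and, chosen after its values were seen, EXPA7, EXPA18 and psbM.

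The alternatives tried were leaving out 1 array at a time, fitting 2 groups alone, blocking on replicate number, weighting arrays, a trend or robust moderation, dropping genes of low level, other uses of probe sets, cyclic loess and a second quantile normalization. Same-numbered replicates were checked for pairing by the correlation of their deviations from the group means, which ran from -0.106 to 0.0698 across genes. Sequences are not shown.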

Additional observations from a re-analysis of the deposited data

How the results depend on the processing

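No difference in a member's level between tubes changed sign under any alternative run, and the count between the flight tubes was 0 in every fit. The sizes did change with normalization. Between the flight tubes, the median of -0.27 became -0.12 with a second quantile normalization and -0.18 with cyclic loess. The rps4 difference of -0.41 became -0.27 and -0.32, and the rpl14 difference of 0.10 became 0.30 and 0.20. The count of members called in last-actuated against ground roots, 2, became 4 with genes above the median of gene means and 0 with cyclic loess, with all probe sets tested, with the 2 groups only or with the replicate block. Without each array in turn it ran from 0 to 7. The count of 1 in first-actuated against ground roots became 4 with a second quantile normalization, 2 and 6 with genes above the lower quartile and the median of gene means, 6 with array weights and 0 with cyclic loess, all probe sets or 2 groups only, and ran from 0 to 7 without each array. With the replicate block it stayed at 1. The count of 3 by the F test became 5 and 6 with those filters, 7 with array weights, 0 with cyclic loess or all probe sets and 0 to 7 without each array, and was 2 with the replicate block. The numbers do not pair the tubes. The 4 relative differences without overlap became 4 to 13 without each array, with 2 against 3 arrays where the array belonged to the comparison. Set against all other plastid genes, the relative difference of rpl14 between last-actuated and ground roots was -0.33, in place of 0.01, and those of rpl20 were -0.10 and -0.11 in last-actuated and first-actuated roots, in place of 0.24 and 0.26. Without 1 array, relative differences of 0.08 or less in size also changed sign, for rps2 and rpl20 between the flight tubes and for rpl14 between last-actuated and ground roots. That of rpl33 between the flight tubes, 0.13, was -0.0 after rounding without last-actuated replicate 1. The cause of these changes was not tested. With 3 arrays of 1 tube a group, the spread between tubes of 1 condition was not measured. Over all genes, the calls in last-actuated against ground roots numbered 28 with the 2 groups only, 255 above the median of gene means and 228 over all probe sets, in place of 151, and 53 to 508 without each array. Those in first-actuated against ground roots numbered 419 and 1306 with the 2 groups only and all probe sets, in place of 776, and 384 to 1253 without each array. Between the flight tubes there were 597 with array weights and 596 over all probe sets, in place of 371, and 100 to 495 without each array. By the F test there were 1219 over all probe sets, in place of 737, and 327 to 1216 without each array.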

Other observations

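Another 10 probe sets named several plastid ribosomal protein genes, mostly the copies of rps7, rps12, rpl2 and rpl23 in the inverted repeats, and entered no comparison. Since 4 pairs of them held equal values in every tube, they gave 6 distinct patterns. All 10 had lower means in both flight tubes than on the ground, by 0.89 to 1.68 on the log2 scale in last-actuated and by 0.50 to 1.61 in first-actuated roots, and none was higher in last-actuated than in first-actuated roots. In all 10 ground replicate 2 was the lowest ground array. These values were not tested.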
